A study of Mus musculus with 2 samples.

Results

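The genes described here are 9 receptors through which myeloid cells sense chemokines and other chemoattractants: *Ccr1*, *Ccr2*, *Ccrl2*, *Cx3cr1*, *Cxcr4*, *C5ar1*, *C3ar1*, *Fpr1* and *Fpr2*. They were taken by name, with every probe that reads them, out of 20655 named genes on the arrays, and 10 probes matched. The cells were RAW264.7, an established mouse macrophage line from an Abelson murine leukemia virus-induced ascites tumor of an adult male BALB/c mouse. One culture received vehicle control, whose composition is not given in the sources used here, and one received IR-61, a near-infrared heptamethine cyanine dye that accumulates in mitochondria, at 10 μM by the figure legend. Both were kept for 24 h in DMEM with heat-inactivated fetal bovine serum, with no further stimulus in the labels. RNA of each culture was read on 1 single-colour Agilent array, with no replicate of either condition. The values are therefore a description of these 2 arrays without any p-value, and what IR-61 did cannot be told apart from what differed between the cultures for other reasons. In such bulk RNA, fewer cells of a type and less RNA per cell cannot be told apart.

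Most of these receptors are G protein-coupled receptors that span the membrane repeatedly, couple mainly to Gi proteins and turn a gradient of ligand into directed movement. CCR1, CCR2 and CX3CR1 bind chemokines that recruit monocytes, and CXCR4 binds CXCL12, which retains leukocytes in bone marrow. C5AR1 and C3AR1 bind the complement fragments C5a and C3a, and FPR1 and FPR2 bind formylated bacterial peptides. CCRL2 is an atypical member that binds chemerin and presents it to neighbouring cells without known signalling of its own. In macrophages several of these genes respond to inflammatory stimuli, which is why they bear on the question of how IR-61 affects macrophage activation.

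Among the 9 receptors, none differed by 2-fold or more between the arrays after scaling to the 75th percentile. Of all measured genes 1.39% were lower and 1.99% higher by that much, so this absence is not a result about the receptors. On the IR-61 array *Cx3cr1*, *Ccr1*, *C3ar1* and *Ccr2* were higher, by 0.22 to 0.62 on the log2 scale. Of these, *Ccr2*, at 0.22, did not exceed its SD of 0.23 from the spread between spots. *C5ar1*, *Cxcr4*, *Fpr1*, *Ccrl2* and *Fpr2* were lower, with differences from −0.52 to −0.24. The largest difference in size was that of the brighter *Cx3cr1* probe, a 1.53-fold higher scaled signal, and the second *Cx3cr1* probe did not share its direction. The direction of the lower receptors holds after each array is set against its own 75th percentile, and without that scaling 4 of these 5 were slightly higher. Also without it, the signal of the brighter *Cx3cr1* probe was 2.15-fold higher.

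The arrays read transcript levels, so the promoters are shown for the 4 receptors in which a search for the motifs of 3 macrophage transcription factors found a match. The windows are those of RefSeq on GRCm38.p6, from 250 bases before to 50 bases after a start site, and all 9 receptors matched by symbol, with 11 windows because *Ccrl2* has 3. Capitals mark the motifs on either strand, which did not overlap each other: the NF-kB consensus, AP-1 as TGANTCA and PU.1 as GAGGAA. The window of *Ccrl2* shown is the one with a match.
Ccr1, chr9:123968643-123968942, minus strand: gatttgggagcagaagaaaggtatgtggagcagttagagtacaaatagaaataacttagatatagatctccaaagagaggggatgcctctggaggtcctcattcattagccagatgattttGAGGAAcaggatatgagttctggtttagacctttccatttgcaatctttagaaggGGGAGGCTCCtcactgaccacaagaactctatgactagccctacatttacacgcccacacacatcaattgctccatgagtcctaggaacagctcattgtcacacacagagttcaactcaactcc
C3ar1, chr6:122856108-122856407, minus strand: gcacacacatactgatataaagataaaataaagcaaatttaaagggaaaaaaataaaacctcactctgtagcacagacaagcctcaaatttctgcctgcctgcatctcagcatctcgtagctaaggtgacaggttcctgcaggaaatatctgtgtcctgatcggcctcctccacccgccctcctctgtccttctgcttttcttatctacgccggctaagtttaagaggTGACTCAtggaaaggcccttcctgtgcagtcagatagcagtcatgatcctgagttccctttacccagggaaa
Ccrl2, chr9:111057469-111057768, minus strand: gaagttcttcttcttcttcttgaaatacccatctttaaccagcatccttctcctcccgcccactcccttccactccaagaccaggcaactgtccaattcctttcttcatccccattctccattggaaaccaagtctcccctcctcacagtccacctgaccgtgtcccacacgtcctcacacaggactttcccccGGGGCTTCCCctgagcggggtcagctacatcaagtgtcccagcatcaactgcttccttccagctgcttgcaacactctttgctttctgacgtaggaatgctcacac
Fpr2, chr17:17887574-17887873, plus strand: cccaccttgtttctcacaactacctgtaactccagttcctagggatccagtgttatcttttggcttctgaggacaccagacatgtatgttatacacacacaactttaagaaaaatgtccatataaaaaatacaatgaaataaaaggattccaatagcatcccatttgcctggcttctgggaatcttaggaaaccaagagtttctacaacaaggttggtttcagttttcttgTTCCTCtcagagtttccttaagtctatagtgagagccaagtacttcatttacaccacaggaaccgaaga

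The NF-kB consensus stood in the windows of *Ccr1*, 74 bases before the start, and *Ccrl2*, 56 bases before it. AP-1 stood in that of *C3ar1*, 22 bases before the start, and PU.1 in those of *Ccr1*, 129 bases before the start, and *Fpr2*, 19 bases before it. In all, 2 of the 11 windows held the NF-kB consensus, 1 AP-1 and 2 PU.1. Of 32851 windows of this length in the same table, 8.46% held the NF-kB consensus, 7.81% AP-1 and 28.3% PU.1. These matches describe letters in the windows, and binding was not measured.

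The signal of a spot is the brightness that the Agilent software gives after background subtraction and detrending, in intensity units, and is comparable for 1 probe across arrays but not between probes. The IR-61 array was brighter as a whole, with a 75th percentile of 10.79 on the log2 scale against 10.30 for vehicle. Scaled log2 signals are relative to these values, which lowers every difference by 0.49. All 9 receptors were well above background on both arrays, no spot was saturated and none of the receptors' spots carried an outlier flag. Each receptor probe was printed once on each array, so there is no spread between spots for the receptors themselves. An SD of a difference was taken from probes printed 10 times, 57 to 150 of them in each signal range of an array, and a second SD from the error estimate that the Agilent software gives for each spot. Neither holds the difference between cultures.

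*Ccr1*, a receptor for CCL3, CCL5 and related chemokines, had a signal of 2447 with vehicle and 4633 with IR-61. After scaling these were 0.95 and 1.39 on the log2 scale, a log2 difference of 0.43 or a 1.35-fold higher signal. The SD of this difference was 0.094 from the spread between spots and 0.20 from the Agilent estimate, so it was 4.58 times the first and 2.12 times the second. Of the higher receptors, *Ccr1* had the largest difference relative to the SD from the spread between spots. Relative to the Agilent estimate it was the brighter *Cx3cr1* probe, at 3.01 times.

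*Ccr2*, the receptor for CCL2 that brings monocytes out of the marrow, had a signal of 396 with vehicle and 649 with IR-61. The scaled log2 signals were −1.67 and −1.45. The log2 difference of 0.22 was close to its SD of 0.23 from the spread between spots, so no difference was detectable at this signal. Between *Ccr1* and *Ccr2* the log2 differences themselves were 0.21 apart, with an SD of 0.25, which does not separate the pair.

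*Cx3cr1*, the receptor for the membrane-bound chemokine fractalkine, was the only receptor with several probes, both designed on the same RefSeq transcript. The brighter probe had a signal of 311 with vehicle and 669 with IR-61, and scaled log2 signals of −2.02 and −1.41. Its log2 difference of 0.62 had an SD of 0.23 from the spread between spots and of 0.20 from the Agilent estimate. The dimmer probe had a signal of 61.1 with vehicle and 66.6 with IR-61, scaled to −4.37 and −4.73, and a log2 difference of −0.36 with an SD of 0.38 from the spread between spots and of 0.23 from the Agilent estimate. The brighter probe was higher with IR-61, and the dimmer one had the opposite sign, within the first SD and at 1.60 times the second. The mean over both probes gave a log2 difference of 0.13. The probes were 0.98 apart, and among 4160 genes with several probes well above background on both arrays, 7.74% had probes at least that far apart, with a median of 0.37. Probes of opposite sign were found in 45.7% of these genes.

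*Cxcr4*, the receptor for CXCL12, had a signal of 5796 with vehicle and 6516 with IR-61. The scaled log2 signals were 2.20 and 1.88, and the log2 difference was −0.32 with an SD of 0.094 from spots and 0.20 from the Agilent estimate. The signal of *Cxcr4* was therefore higher as deposited and lower relative to the rest of its array.

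*Ccrl2*, the chemerin-binding receptor, had nearly the same signal on both arrays as deposited, 9909 with vehicle and 9953 with IR-61. Against the brighter IR-61 array this was a drop from 2.97 to 2.49 in scaled log2 signal. The log2 difference of −0.48 was 5.11 times the SD from the spread between spots and 2.36 times that of the Agilent estimate, and the scaled signal was 1.40-fold lower. Of the lower receptors, *Ccrl2* had the largest difference relative to the spread between spots.

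**Figure D1:**
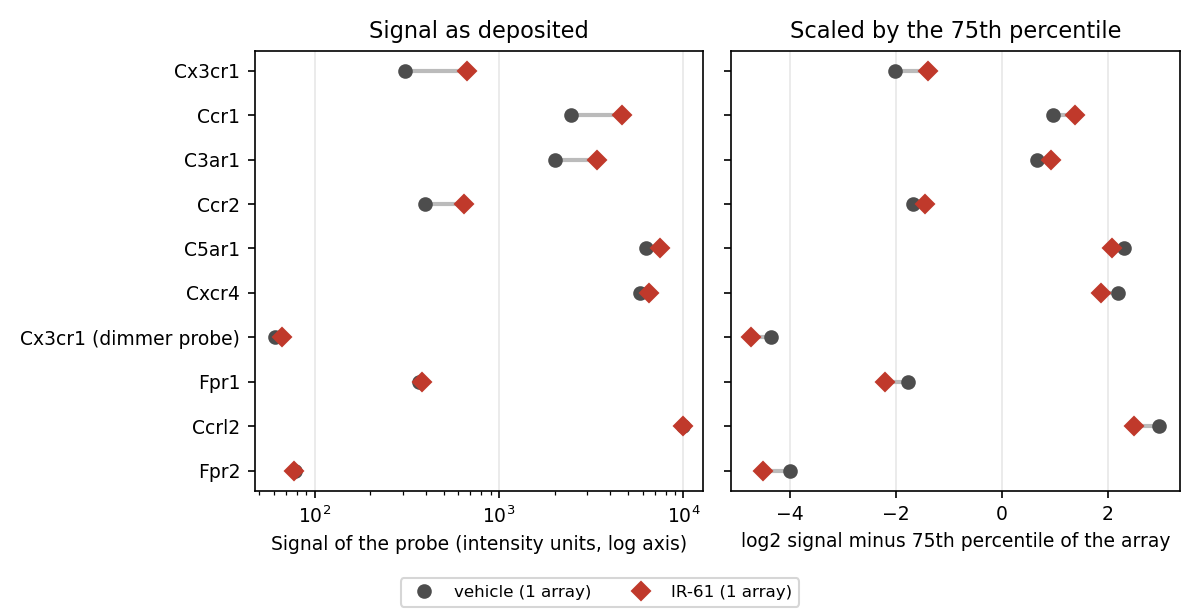
Signal of each receptor probe on the vehicle array (circles) and the IR-61 array (diamonds), 1 array each, as deposited in intensity units on a log axis (left) and as log2 signal minus the 75th percentile of the array (right). Comparisons hold along a row only: as deposited *Ccrl2* lies at 9909 and 9953, and after scaling it is lower with IR-61, while the brighter probe of *Cx3cr1* is higher with IR-61 in both panels.

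The complement receptors differed in sign. *C5ar1*, which drives the strongest chemotactic response of the complement system, had a signal of 6269 with vehicle and 7462 with IR-61, scaled to 2.31 and 2.07. Its log2 difference was −0.24, with an SD of 0.094 from spots and of 0.20 from the Agilent estimate. *C3ar1*, the receptor for C3a, had a signal of 2006 with vehicle and 3385 with IR-61, scaled to 0.67 and 0.93. Its log2 difference was 0.27 with the same SDs, and each of the complement receptors was within 1.31 times the Agilent SD of 0. A difference between genes on the same arrays does not depend on a single scaling factor. *C3ar1* was 0.50 above *C5ar1* in log2 difference, with an SD of 0.13 from spots and of 0.29 from the Agilent estimate.

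Both formyl peptide receptors were lower on the IR-61 array relative to its overall level. *Fpr1* had a signal of 370 with vehicle and 383 with IR-61, scaled to −1.77 and −2.21. The log2 difference of *Fpr1* was −0.44, with an SD of 0.23 from spots. *Fpr2* had a signal of 78.7 with vehicle and 77.0 with IR-61, scaled to −4.00 and −4.52. It had the lowest log2 difference of the 9 receptors, at −0.52 with an SD of 0.23 from spots and 0.22 from the Agilent estimate, or a 1.43-fold lower scaled signal. The signal of *Fpr2* was 6.15 times the lowest signal well above background with vehicle and 5.13 times with IR-61, so it was read near the limit of the arrays, as was the dimmer *Cx3cr1* probe at 4.78 and 4.44 times. The log2 differences of *Fpr1* and *Fpr2* were 0.081 apart, within the SD of 0.32.

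**Figure D2:**
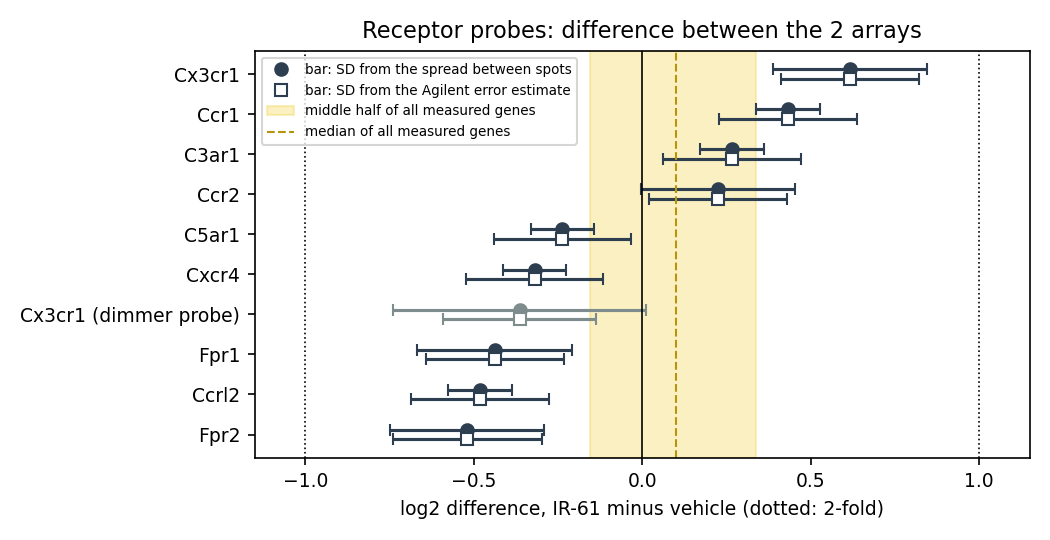
Log2 difference, IR-61 minus vehicle, of the 10 receptor probes, with bars of 1 SD from the spread between spots (circles) and from the Agilent error estimate (squares). The shaded band is the interquartile range of all measured genes, −0.15 to 0.34, and the dashed line their median, 0.10; the dotted lines at 2-fold lie outside every receptor probe.

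Of 16885 genes measured well above background on both arrays, 1.39% were lower by 2-fold or more and 1.99% higher, against 0 and 0 of the 9 receptors. With 9 genes such shares amount to less than 1 gene, so the absence of calls is not a result about the receptors. At 1.5-fold, 5.69% of the genes were lower and 9.79% higher, against 0 and 1 receptor, the brighter probe of *Cx3cr1*. With scaling by the median in place of the 75th percentile, 295 genes were lower and 249 higher by 2-fold or more, against 235 and 336. The median log2 difference of the 9 receptors was −0.24, beside 0.10 for all measured genes. All 9 lay between the 5th and 95th percentile of the measured genes, −0.62 and 0.75. Only *Ccr2* and *C3ar1* lay within the interquartile range from −0.15 to 0.34, *Cx3cr1* and *Ccr1* lay above it, and *Fpr2*, *Ccrl2*, *Fpr1*, *Cxcr4* and *C5ar1* below it. Ordered from the lowest difference, *Fpr2* had rank 1196, *Ccrl2* rank 1384 and *Fpr1* rank 1629 of the 16885 genes, and *Cx3cr1* had rank 15444.

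Because the receptors differed in sign, some contrasts among them were wider than any distance from 0. The log2 difference of *Ccr1* exceeded that of *Ccrl2* by 0.91, with an SD of 0.13 from spots and 0.29 from the Agilent estimate, both genes being read far above background. *Cx3cr1* by its brighter probe exceeded *Cxcr4* by 0.94, with SDs of 0.25 and 0.29, and *Fpr2* by 1.14, with SDs of 0.32 and 0.30. These pairs were chosen after the values were seen. Their size shows only that the 2 arrays differed more in how they read some receptors than others, and the spread between cultures was not measured.

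Relative to the median of all measured genes, *Cx3cr1*, *Ccr1*, *C3ar1* and *Ccr2* lay above and the other 5 receptors below under each of the 13 settings tried, the one used here included. This agreement was partly fixed in advance. Scaling each array by a single factor, or not at all, cannot change a difference from that median. The filters on dim probes left the receptor values themselves unchanged. *Ccrl2* lay between −0.61 and −0.46 from that median and *Ccr1* between 0.32 and 0.55. *Cx3cr1* ranged from 0.048, with the mean over its probes, to 0.60. In absolute terms the sign depended on the scaling. Without it *C5ar1*, *Cxcr4*, *Fpr1* and *Ccrl2* were higher by 0.25, 0.17, 0.050 and 0.006, and *Fpr2* was at −0.03.

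**Figure D3:**
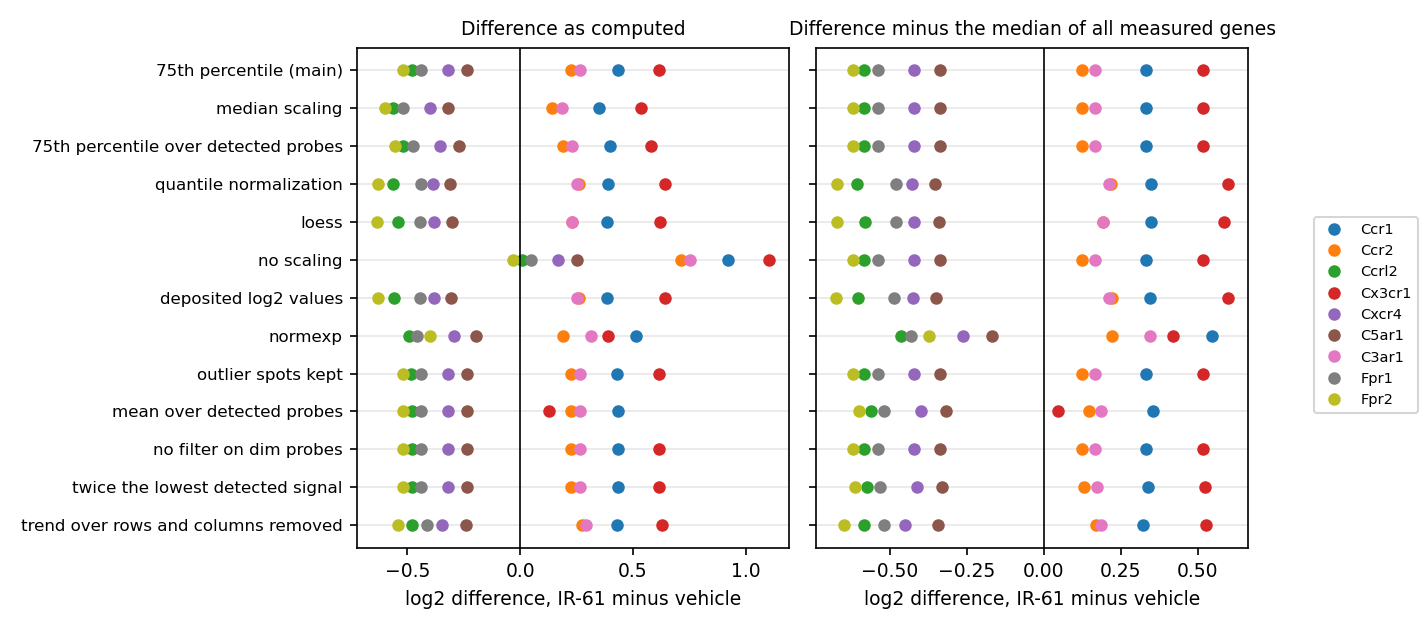
Log2 difference, IR-61 minus vehicle, of the 9 receptors (colours) under 13 processing settings (rows), as computed on the left and after subtracting the median of all measured genes on the right. Without scaling 8 of 9 receptors lie at or above 0 on the left, whereas on the right the same 4 receptors lie above 0 in every row and *Cx3cr1* comes closest to it, at 0.048, with the mean over its probes. Rows that differ only by a single scaling factor per array are the same on the right by construction.

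Several receptors have relatives next to them on the chromosome, which gives a description of position that the choice of genes did not use. *Fpr1* and *Fpr2* are neighbours on chromosome 17, and *Fpr3*, on the other side of *Fpr2*, had a log2 difference of 0.070 with an SD of 0.23, 0.59 above *Fpr2*. On chromosome 7 *C5ar2*, a C5a receptor without G protein coupling, lies next to *C5ar1*, and its 2 probes had log2 differences of −0.11 and −0.05. On chromosome 9 *Ccr3* lies next to *Ccr2*, and was at 0.39 with an SD of 0.38. *Ccr8*, next to *Cx3cr1*, was at 0.45 with an SD of 0.19 by its brighter probe. Its dimmer probe was not well above background with vehicle, and was higher by at least 1.34 on the log2 scale. Members of these families are alike in sequence, and whether a probe also binds the transcript of a relative was not tested.

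In the lists that follow, directions hold after scaling, where 61.2% of all measured genes were higher with IR-61, and without scaling each log2 difference is higher by 0.488. In the rest of the chemokine receptor family, 12 of 14 genes were measured on both arrays, with a median log2 difference of 0.24. Without scaling 3 of them were higher by 2-fold or more, as were 2156 of all 16885 measured genes. With scaling 1 was, beside 1.99% of all measured genes. That gene was *Cxcr3*, best known as the receptor of activated T cells for interferon-induced chemokines, with a signal of 200 in vehicle-treated and 1130 in IR-61-treated cells. Its log2 difference of 2.01, a 4.03-fold higher signal, had an SD of 0.19 from spots and lay between 1.64 and 2.50 under the settings tried. *Cxcr3* was read by 1 probe. The lowest difference in this list was that of *Ccr6*, at −0.88 with an SD of 0.35. *Ccr7*, which guides mature dendritic cells to lymph nodes, was at 0.59 with signals of 64.5 and 136. *Ccr4* was not well above background with vehicle and was at least 1.44-fold higher, and *Xcr1* was not above background on either array.

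Of the atypical receptors, *Ackr1* and *Ackr2* were measured, at 0.18 and 0.04, and *Ackr3* and *Ackr4* were not above background on either array. Of 14 other chemoattractant receptors 11 were measured, none past 2-fold with scaling and 2 higher by 2-fold or more without it, with a median of 0.070. *Ptafr*, the receptor for platelet-activating factor, had signals of 13079 and 12040 and a log2 difference of −0.61 with an SD of 0.094. *Gpr183*, an oxysterol receptor, was at −0.61 with an SD of 0.23, and *Ltb4r1*, the high-affinity leukotriene B4 receptor, was at 0.56 with an SD of 0.38. *Cmklr1*, the signalling receptor for chemerin, had a signal of 72.1 on both arrays and a log2 difference of −0.49 with an SD of 0.23.

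Ligands of the 9 receptors were measured for 17 of 17 listed genes, with 12 lower, 5 higher and a median of −0.12. Without scaling 2 of them, *Ccl9* and *Saa3*, were lower and 15 higher. *Ccl3* was 2.13-fold higher, at a log2 difference of 1.09, and *Ccl9* was 2.40-fold lower, at −1.27, and both are ligands of CCR1, whose own transcript was at 0.43. The SD from spots was 0.094 for each. Without scaling *Ccl9* was at −0.78 and did not pass 2-fold. *Ccl2*, the main ligand of CCR2, was at −0.35 with an SD of 0.030 from probes printed 10 times. *Cxcl12* was at 0.81 by its brighter and 1.43 by its dimmer probe, while *Cxcr4* was at −0.32. The log2 difference of *Cxcr4* was 1.13 below that of the brighter *Cxcl12* probe, with an SD of 0.21. *Rarres2*, which encodes chemerin, was at 0.71 with an SD of 0.23, and lay 1.20 above *Ccrl2*. *Cx3cl1*, the ligand of CX3CR1, was at 0.41 with an SD of 0.38. *C3* was at −0.44 by its brighter and −0.53 by its dimmer probe, and *Hc*, which encodes C5, was at −0.11. Of the genes linked to FPR2, *Saa3* was at −0.67, and *Anxa1* was at −0.12 by its brighter and −0.44 by its dimmer probe, each with an SD of 0.094.

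**Figure D4:**
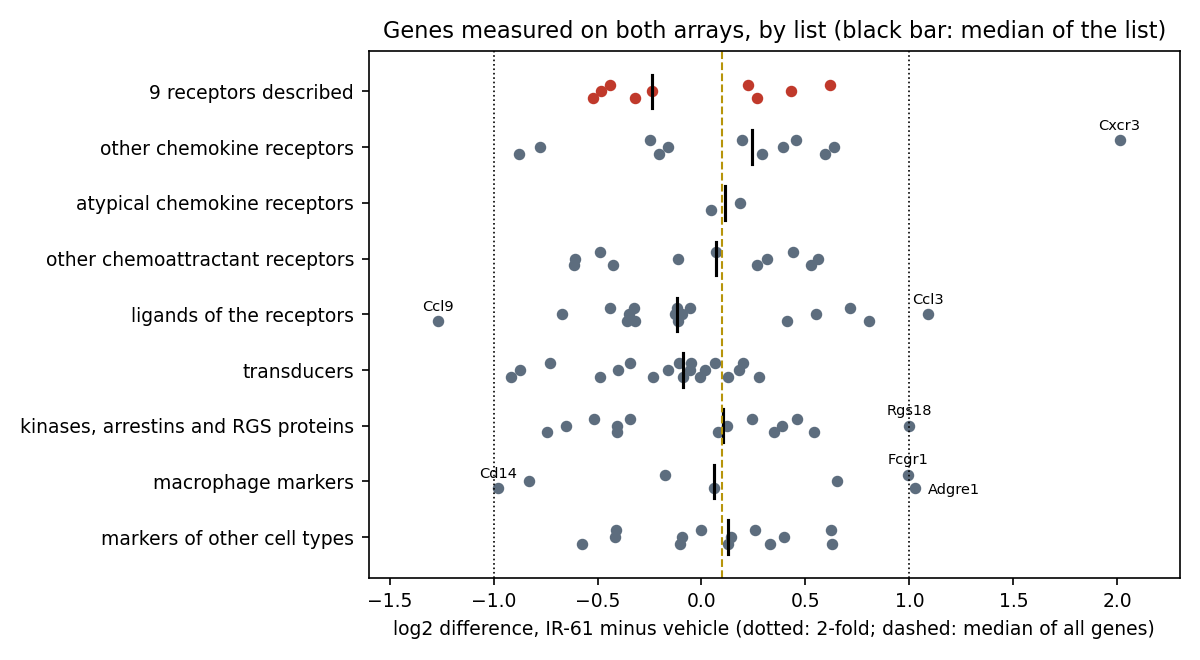
Log2 difference, IR-61 minus vehicle, of every gene measured on both arrays in each list (points), with the median of the list (black bar), the median of all measured genes (dashed) and the 2-fold limits (dotted). The 9 receptors lie between −0.52 and 0.62; *Cxcr3* at 2.01, *Ccl3* at 1.09, *Adgre1* at 1.03 and *Ccl9* at −1.27 are the points past 2-fold.

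Below the receptors, all 19 listed transducers were measured and none passed 2-fold, with 13 lower, 6 higher and a median of −0.09. Without scaling 4 were lower and 15 higher. By the brightest probe of each gene, the lowest difference was that of *Pik3cg*, at −0.92, and its other probe was at −0.93. It encodes the catalytic subunit of the phosphoinositide 3-kinase that Gi-coupled receptors activate. Of the probes of *Vav1*, also in this list, the dimmer was lower still, at −0.98, and the brighter was at −0.11. *Dock2*, an activator of Rac in leukocyte migration, was at −0.87 by its brighter and −0.24 by its dimmer probe. The highest by the brightest probe of each gene was *Prex1*, a Rac activator, at 0.28, and its dimmer probe was at 0.060. The Gi subunits *Gnai2* and *Gnai3* were at −0.01 and 0.06. All 14 listed kinases, arrestins and RGS proteins, which end receptor signalling, were measured, with 6 lower, 8 higher and a median of 0.10, against 3 lower and 11 higher without scaling. *Rgs18*, an RGS protein of myeloid cells, was at 0.998 with signals of 2009 and 5629, just inside 2-fold, and *Arrb2* and *Arrb1*, the beta-arrestins that take receptors off the membrane, were at −0.75 and 0.54. The SD from spots was 0.094 for each of these last 3 genes.

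Macrophage markers were read beside the label of the cells. Of 8 markers 7 had a named probe, and all 7 were well above background on both arrays, with a median log2 difference of 0.06. As 16885 of all 20655 named genes were too, detection of a marker does not check the label of the cells. *Adgre1* was at 1.03 by its brighter and 0.85 by its dimmer probe, *Fcgr1* at 0.99, *Spi1* at −0.83 and *Cd14* at −0.98. Of 15 markers of other cell types 14 had a named probe and 13 were also well above background on both arrays, with a median of 0.13. None of these was past 2-fold with scaling, and without it *Col1a1* and *S100a9* were, at 1.11 and 1.12. With scaling, the differences of these other markers ran from −0.58 for *Zbtb46*, a dendritic cell gene, to 0.63 for *S100a9*, a neutrophil gene. The SDs from spots were 0.23 and 0.46, and the dimmer *Zbtb46* probe was not above background on either array. *S100a9* was read near the limit, with signals of 16.5 and 35.8 against lowest detected signals of 12.8 and 15.0. The fibroblast gene *Col1a1* had signals of 27148 and 58670, and *S100a8* had 4879 and 9020, while *Epcam* was not above background on either array. The part of these markers in the receptor values was not tested.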

How the data were processed

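The authors treated RAW264.7 cells with vehicle control or IR-61, labelled cRNA with Cy3 and scanned 1 array per sample. The deposited intensity of each spot is background-subtracted and detrended within the array (Feature Extraction 11.0.1.1 in the file headers, 11.0.0.1 in the submitters' processing notes, an older one in the methods). The authors also deposited log2 values normalized between the arrays, by a method not given in the sources used here; both columns share their quantiles.

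Control and outlier spots were left out, log2 intensities of a probe's spots averaged and each array's 75th percentile subtracted. RefSeq accessions were matched without version to symbols (GRCm38.p6), which named 27224 of 39419 probes. A gene takes its brightest unsaturated probe. A probe dim on 1 array gives a bound against the array's lowest detected signal (vehicle 12.8, IR-61 15.0). The number of arrays limits the precision.

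The receptors and all gene lists were chosen with earlier results of these data known. Named were all receptors, list genes past 2-fold, the extremes of each list, and some but not all of the ligands and relatives of the receptors. A few other list genes were added after their values were seen. A gene that this rule would name is not reported here on its own. The steps were tested on simulated arrays. Computations used Python 3.11.15 (numpy 2.4.6, pandas 2.3.3) and R 4.3.3 (limma 3.58.1).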

Additional observations from a re-analysis of the deposited data

How the results depend on the processing

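No paired analysis was possible because vehicle and IR-61 were each read on a single array. The 12 alternatives were other scalings (median, 75th percentile over detected probes, quantile, loess and none), the deposited log2 values, normexp with an offset of 50 on the median signal, outlier spots kept, the mean over detected probes, other filters on dim probes and a trend over rows and columns removed. Counts were also taken at limits of 3-fold and 1.5-fold. A value was taken as moved where it changed by more than its SD from the spread between spots.

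No receptor was lower by 2-fold or more under any of these. The number higher by 2-fold or more went from 0 to 1 without scaling, by *Cx3cr1* at 1.11, and was 1 at the 1.5-fold limit. The median of the receptors moved from −0.24 to 0.25 without scaling, a setting under which the median over all measured genes went from 0.10 to 0.59. Of 108 receptor values under the alternatives 98 stayed within that SD, 9 of the 10 others arose without scaling, and the last was *Cx3cr1* with the mean over its probes. Some of the 98 could not move. The filters on dim probes left every receptor value unchanged, and averaging over probes can change only *Cx3cr1*. No receptor spot carried an outlier flag, so keeping outlier spots changed only the scaling. Scaling by the median or over detected probes shifted every receptor by the same amount. The deposited log2 values lay close to those of quantile normalization, so the 98 are not separate checks. Counts over all genes past 2-fold were 235 lower and 336 higher, against 72 and 2156 without scaling, 149 and 124 with normexp and 440 and 921 with no filter on dim probes. For normexp, 4 spots of the IR-61 array with a local background above their signal took the median background. *Adgre1* fell short of 2-fold with scaling by the median, at 0.94, over detected probes, at 0.99, and with the mean over its probes, at 0.94. *Cd14*, lower by less than 2-fold here, passed it under 6 settings, at −1.01 to −1.06, and was at −0.49 without scaling.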
